A study of Mus musculus with 2 samples.

Results

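The miRNAs described here are those known from blood cells and from the endothelium, the cell layer that lines blood vessels. They were chosen by name, as every probe for either arm of miR-126, miR-142, miR-144, miR-150, miR-223 or miR-451a, which gave 11 of the 1265 mature miRNA probes on the arrays, from 6 precursors. The RNA came from mouse embryonic stem cells of ATCC line CRL-1934 and strain 129S2/SvPas, kept in medium with 15% fetal bovine serum and moved to ultra-low attachment dishes, where the cells aggregate into embryoid bodies. Total RNA of day 0 and of day 10 of differentiation was labelled with Cy5, and each day was measured on 1 array. The 2 groups thus have the same described line, medium and dish and are labelled by day. Whether the day 0 RNA was taken before the move to the dishes is not given here. No label names a blood or endothelial cell in either group. The comparison of days asked how these miRNAs differ between the start of differentiation and day 10.

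A miRNA precursor folds into a hairpin, from which the 5p and the 3p arm are cut. In most precursors one arm is loaded into an Argonaute protein and kept, and it then represses mRNAs that pair with its seed, the bases 2 to 8. As background, miR-126 lies within Egfl7, a gene of endothelial cells, and maintains vascular integrity. miR-142 is a marker of nearly all white blood cells, miR-223 of granulocytes and other myeloid cells, and miR-150 of mature B and T lymphocytes. miR-144 and miR-451a come from one transcript of red cell precursors, and miR-451a is cut by Argonaute 2 in place of Dicer. Mouse embryoid bodies can form blood islands and vessels.

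The 11 target sequences, as given in the scanner files, are shown from 5′ to 3′ with the seed in capitals (the prefix mmu- stands for mouse and is left out below). The seed bears on which mRNAs a miRNA represses. The closeness of the whole sequence to other targets bears on what its probe can be said to measure.
mmu-miR-126-3p: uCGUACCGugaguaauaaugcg
mmu-miR-126-5p: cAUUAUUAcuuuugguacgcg
mmu-miR-142-3p: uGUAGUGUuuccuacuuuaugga
mmu-miR-142-5p: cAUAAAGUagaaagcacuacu
mmu-miR-223-3p: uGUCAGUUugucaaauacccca
mmu-miR-223-5p: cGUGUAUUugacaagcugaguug
mmu-miR-150-5p: uCUCCCAAcccuuguaccagug
mmu-miR-150-3p: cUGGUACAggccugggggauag
mmu-miR-144-3p: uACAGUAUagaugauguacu
mmu-miR-144-5p: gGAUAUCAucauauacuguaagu
mmu-miR-451a: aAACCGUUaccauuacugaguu
The 11 targets had 11 different seeds, so they form no seed family. The seed of 10 of them was the seed of no other target on the array, and that of miR-150-5p was also that of miR-5127. Targets were 20 to 23 bases long.

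In RefSeq annotation of build GRCm38.p6, 9 of the 11 matched a mature miRNA by name and sequence. miR-126-5p and miR-150-5p are named only. miR-126-3p is at chr2:26591402-26591423 on the plus strand, and its hairpin gene Mir126a overlaps the protein-coding gene Egfl7. miR-142-5p is at chr11:87756867-87756887 and miR-142-3p at chr11:87756903-87756925. miR-223-5p is at chrX:96242842-96242864 and miR-223-3p at chrX:96242884-96242905, in a hairpin that overlaps the long noncoding RNA gene F630028O10Rik. miR-150-3p is at chr7:45121798-45121819. miR-144-5p is at chr11:78073010-78073032, miR-144-3p at chr11:78073047-78073066 and miR-451a at chr11:78073186-78073207, with 99 bases between the Mir144 and Mir451a hairpins. All 9 are on the plus strand.

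Spot intensity was taken as the scanner files give it, a linear median density with 3 spots per probe. A probe was called detected on an array if its middle spot exceeded a threshold, the 95th percentile over 5 blank spots. This was 70.0 on day 0, where blanks ran from 36.6 to 72.7, and 71.4 on day 10, where they ran from 36.2 to 71.6. As 5 blanks set it, the threshold is imprecise. The day 10 array was dimmer. Over the 739 probes detected on at least 1 array, the median log2 ratio of scanner signal, day 10 over day 0, was -0.77, and 677 had a ratio below 0. For spike-in probes this median was -0.25, and for 5S rRNA probes it was 0.15. The labelled cell type was checked on 12 miRNAs of the miR-290 and miR-302 clusters, known from embryonic stem cells. All 12 were detected on both days, against 37.5% of all probes, with mean signals of 73.5 to 13820 on day 0 and 162 to 11867 on day 10. The dimmest on day 0, miR-302a-3p, was close to the threshold. After the normalization given below, 3 of the 12 were at least 2-fold higher on day 10, all of the miR-302 cluster, and none lower. Of the detected probes, 6.77% were higher by that size and 10.4% lower.

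Of the 11 probes, 5 were detected on day 0, against 58.3% of all probes, and 2 on day 10, against 37.6%. miR-126-3p and miR-150-5p were detected on both days, as were 37.5% of all probes. miR-223-3p, miR-142-5p and miR-150-3p were detected on day 0 alone. The other 6, which are miR-126-5p, miR-142-3p, miR-223-5p, miR-144-3p, miR-144-5p and miR-451a, were detected on neither day, as were 41.6% of all probes. In RNA of whole cultures, fewer cells of a type and less miRNA per cell cannot be told apart, and a signal under the threshold is a limit of the array and not an absence.

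**Figure D1:**
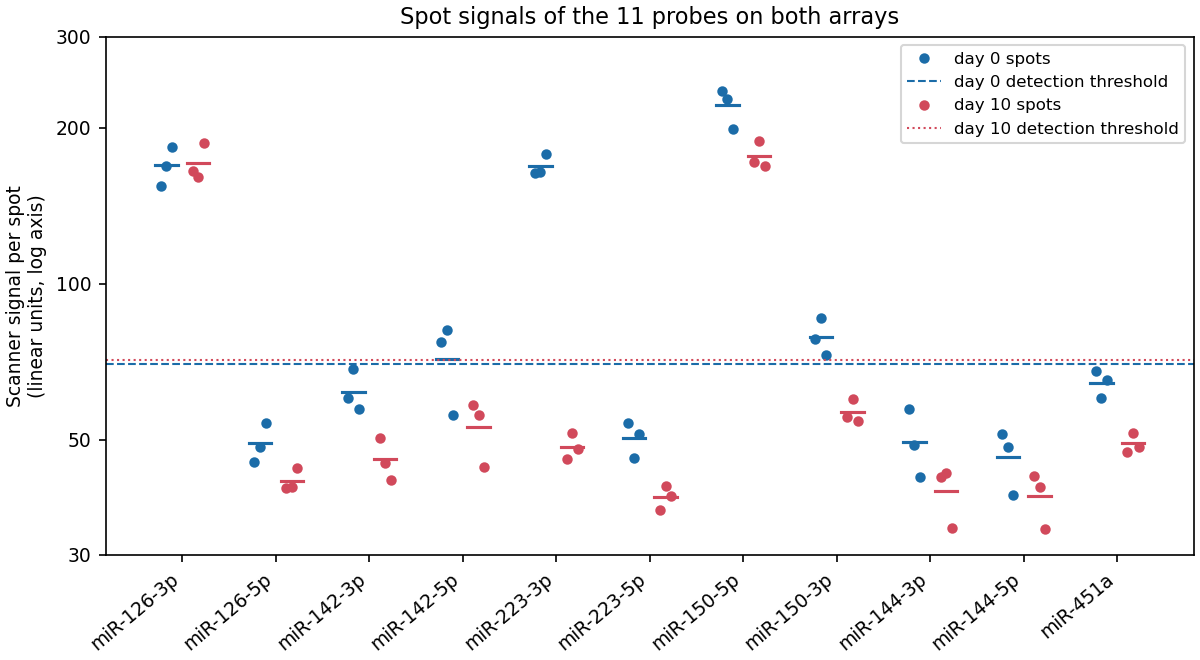
Scanner signal per spot (log axis) of the 11 probes on the day 0 array (blue) and the day 10 array (red). Points are the 3 spots of a probe, short bars their mean, and the lines the detection thresholds of 70.0 and 71.4. Only miR-126-3p and miR-150-5p lie above the threshold on both days, and miR-223-3p passes from well above it to below it.

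The endothelial miR-126-3p kept its signal while most detected probes were dimmer on day 10. Its 3 spots gave 155, 169 and 184 on day 0 and 165, 161 and 187 on day 10. The spots of the days overlapped, and all 6 lay above the thresholds, with medians 2.41 times the threshold on day 0 and 2.31 times on day 10. The log2 ratio of scanner signal was 0.015.

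Normalized values set this against the other probes. Signals were corrected with the normexp method with an offset of 50, put on the log2 scale and quantile normalized between the arrays. Adding an offset makes the differences of dim probes smaller than they are, and every fold here is one of corrected signal plus 50. A level is the mean over 3 spots, and its SD is technical. The level of miR-126-3p was 7.14 on day 0 and 8.11 on day 10, a difference of 0.97 (SD 0.078 over 3 spots) or 1.96-fold. The 3 spot differences ran from 0.89 to 1.04. The median difference of the 739 detected probes was 0.024. Of these, 263 were detected on day 0 but not on day 10, so their day 10 values lay below detection. With these probes included, 93.0% of the 739 had a lower difference than miR-126-3p. In the authors' processed intensity the values were 83.2 on day 0 and 194 on day 10, a log2 difference of 0.88 once 50 was added to each, as for the corrected signals. The direction rested on the scaling between arrays, with a difference of 0.041 without normalization and -0.10 with 5S scaling, which sets the 5S rRNA probes level. Minus the median of the detected probes, it was 0.67 to 2.47 across the 14 settings tried.

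The other arm of the same hairpin, miR-126-5p, was not detected. Its spots were at 45.3, 48.5 and 54.0 on day 0 and at 40.3, 40.6 and 44.1 on day 10. All 6 lay within the range of the blank spots, so no difference is given. The hairpin is shown with both arms in capitals, miR-126-5p first, as RefSeq has it at chr2:26591357-26591429 of GRCm38.p6, plus strand.
Mir126a: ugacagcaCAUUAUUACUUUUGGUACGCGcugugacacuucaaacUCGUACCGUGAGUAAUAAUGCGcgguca
The target nearest to miR-126-3p was 8 edits away, an edit being a substitution, insertion or deletion of 1 base.

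The myeloid miR-223-3p had the largest drop in scanner signal of the 11 probes. Its spots gave 164, 165 and 178 on day 0 and 46.0, 51.6 and 48.0 on day 10. No spot of one day came near those of the other, and the mean scanner signal was 3.48 times higher on day 0, at 169 (SD 7.83) against 48.5 (SD 2.85). The day 10 spots lay within the range of the blanks, so the probe had only a bound there.

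After quantile normalization, miR-223-3p was at least 1.30-fold lower on day 10, which sets its day 0 level against the lowest level of any detected probe on the day 10 array. The bound holds for this normalization alone, as 75th percentile scaling gave a smaller measured difference (-0.31). The measured levels were 7.14 and 6.19, a difference of -0.94 (SD 0.11 over 3 spots) that rests on a day 10 value not above the blanks. It was short of the 2-fold size used to call a miRNA lower, and it passed that size in 8 of the 13 other settings. These were the authors' processed intensity (79.6 on day 0 and 12.7 on day 10), no normalization (-1.46), spike-in scaling, which sets the spike-in probes level (-1.24), 5S scaling (-1.61), an offset of 16 (-1.44), no background correction (-1.13), leaving out spot 2 (-1.01) and subtraction of the blank signal. Read this way, the difference was below 0 under all 14 settings, from -4.56 with the blank signal subtracted to -0.31 with 75th percentile scaling. The -4.56 is no measured size, since the day 10 spots, under the blank median of 68.1, were set to 1. Loss of detection was common, as 35.6% of the probes detected on day 0 were not detected on day 10.

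miR-223-5p, the other arm, was not detected, with spots of 53.8, 46.2 and 51.4 on day 0 and 36.7, 40.8 and 39.0 on day 10. The hairpin at chrX:96242817-96242926, plus strand, is shown with miR-223-5p and then miR-223-3p in capitals, since day 0 detected one arm and not the other.
Mir223: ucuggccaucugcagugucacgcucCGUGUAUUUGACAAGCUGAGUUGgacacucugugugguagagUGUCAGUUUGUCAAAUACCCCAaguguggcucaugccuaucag
The targets nearest to miR-223-3p were 9 edits away.

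**Figure D2:**
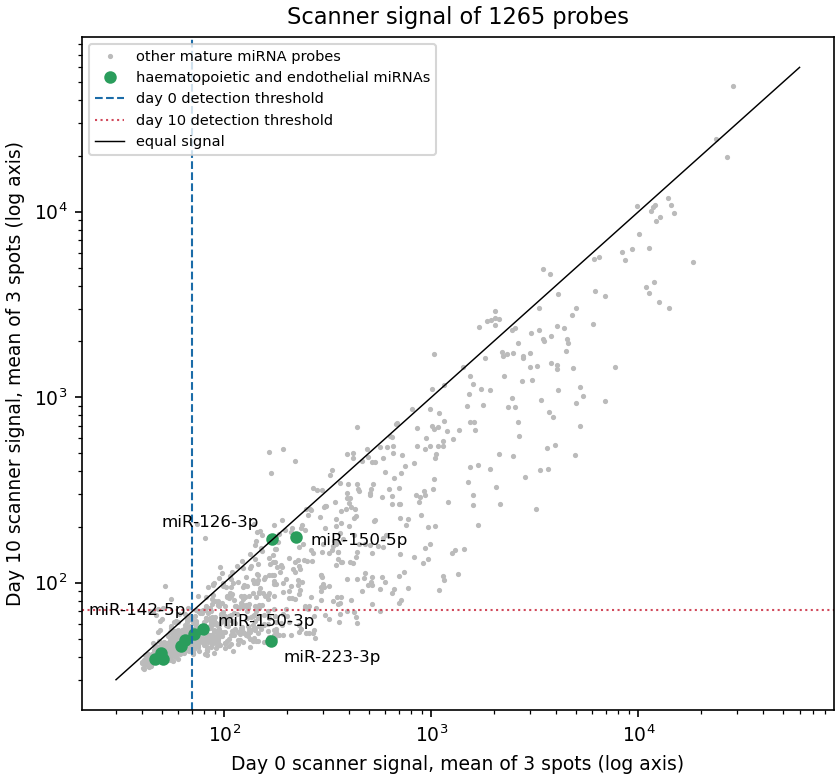
Mean scanner signal of 3 spots on day 0 and day 10 (log axes) for 1265 probes. Grey points are other mature miRNAs, green points the 11 haematopoietic and endothelial probes, the black line equal signal, and the dashed and dotted lines the detection thresholds. miR-126-3p lies on the line of equal signal, miR-150-5p just below it and miR-223-3p far below it.

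Of the lymphocyte miR-150, both arms were detected on day 0. The spots of miR-150-5p gave 236, 228 and 199 on day 0 and 172, 189 and 169 on day 10. All day 10 spots lay below all day 0 spots, with a mean of 177 against 221, a log2 ratio of -0.32. Such a separation held for 79.3% of all probes, and for 7 of the 11 members.

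The median detected probe dimmed more than this, and after normalization the sign was the opposite. The level of miR-150-5p was 7.43 on day 0 and 8.15 on day 10, a difference of 0.72 (SD 0.10 over 3 spots) or 1.64-fold. Of the detected probes, which include those that day 10 did not detect, 85.1% had a lower difference. The difference was -0.27 without normalization, -0.42 with 5S scaling and -0.048 with spike-in scaling. Minus the median of the detected probes, it was 0.35 to 1.80 across settings.

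The opposite arm, miR-150-3p, had spots of 78.4, 85.8 and 73.1 on day 0, all just above the threshold, and of 55.4, 60.0 and 54.5 on day 10, all below it. No fold is given, since the bound for a probe this dim is under 1. Its day 10 value was not above the blanks, so the direction is not measured.

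Closeness to another target bears on miR-150-5p, whose nearest neighbour, miR-3971, is 4 edits away. The run of 10 bases that both hold is in capitals.
miR-150-5p: ucucccaacccuUGUACCAGUG
miR-3971: cuccccaccccUGUACCAGUGa
The probe for miR-3971 was not detected on either day, with spots of 48.6 to 57.6 on day 0 and 48.8 to 54.3 on day 10. The probe for miR-5127, with the seed of miR-150-5p, had spots of 85.9 to 98.1 on day 0 and 46.7 to 48.3 on day 10, so it was detected on day 0 alone. Whether either adds to the miR-150-5p signal was not tested.

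The white cell miRNA miR-142 was at the limit of detection. miR-142-5p had spots of 77.4, 81.4 and 55.8 on day 0, of which 2 passed the threshold, and of 58.5, 56.0 and 44.3 on day 10, of which none did. Under a rule that asks for all 3 spots, the probe was not detected on either day. Its normalized difference of 0.081 was smaller than the spread of its spots (SD 0.091) and rests on a day 10 value not above the blanks, so neither a fold nor a direction can be given. miR-142-3p had spots of 60.2, 68.4 and 57.5 on day 0 and 50.5, 45.2 and 41.9 on day 10, all below the thresholds. The third spot of each arm, the dimmest on both days for miR-142-5p and miR-142-3p, lies in column 1 of the array.

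The detected arm here was the 5p one, and it resembles miR-3964, with 4 edits between them and a shared run of 13 bases, in capitals.
miR-142-5p: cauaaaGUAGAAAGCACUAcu
miR-3964: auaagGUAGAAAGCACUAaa
The miR-3964 probe was not detected either, at 42.0 to 51.9 on day 0 and 39.4 to 43.3 on day 10. Both arms are in capitals in the hairpin at chr11:87756864-87756927, plus strand, with miR-142-5p first.
Mir142: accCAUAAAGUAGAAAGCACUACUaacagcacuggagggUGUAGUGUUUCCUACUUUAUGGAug

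The red cell miRNAs gave no signal above the blanks. miR-144-3p had spots of 57.3, 49.0 and 42.4 on day 0 and 42.4, 43.2 and 33.8 on day 10. miR-144-5p had spots of 51.4, 48.5 and 39.2 on day 0 and 42.6, 40.5 and 33.7 on day 10. Both arms thus lay under the thresholds at every spot. miR-451a came closer on day 0, with spots of 67.8, 60.3 and 65.4, all under 70.0, and had 47.5, 51.7 and 48.5 on day 10. miR-144 and miR-451a are abundant in red cells, and at this sensitivity neither array detected them. miR-451b, read from the opposite strand of the miR-451a locus and no member, had a mean signal of 90.8 on day 0 and was not detected on day 10, at 44.4.

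Over the 9 members that the day 10 array did not detect, 0 of 27 spots passed the day 10 threshold, and they ran from 33.7 to 60.0. Over the 6 detected on neither day, day 0 spots ran from 39.2 to 68.4 with a median of 52.6. The blank spots of day 0 had a median of 56.0. On day 10 the spots of these 6 probes ran from 33.7 to 51.7 with a median of 42.2, below the blank median of 68.1.

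**Figure D3:**
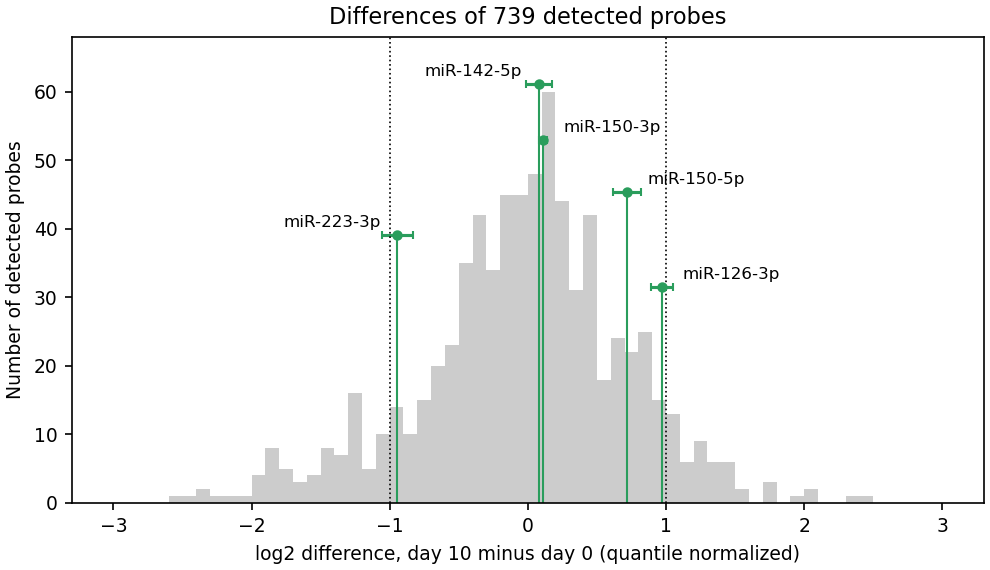
Histogram of the quantile normalized log2 difference, day 10 minus day 0, of the 739 detected probes, with the 5 detected members drawn as green lines and points with their SD over 3 spots as bars. The height of a point has no meaning, and dotted lines mark 2-fold. The 3 members that day 10 did not detect are drawn at their measured values, which are not above the blanks there. miR-126-3p at 0.97 and miR-223-3p at -0.94 lie just inside the 2-fold lines on opposite sides.

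None of the 11 members was at least 2-fold higher on day 10 and none at least 2-fold lower. Only the 5 members detected on day 0 or day 10 could be called, as a call asked for detection. Of the 739 detected probes, 6.77% were higher by that size and 10.4% lower. Over so few members, no calls is little different from these shares. The counts of members depended on the processing. With other settings the higher count was 1 or 2 in 6 of them and the lower count 1 or 2 in 9, the latter among others with the authors' values and with spike-in and 5S scaling. The 2 members detected on both days, miR-126-3p and miR-150-5p, had a normalized difference above 0. In scanner signal 10 of the 11 were dimmer on day 10, the exception being miR-126-3p. So were 677 of the 739 detected probes, so this is no trait of the set. No probe of the set had all its day 10 spots above its day 0 spots, which 2.92% of all probes had. There was 1 array per day, so no test was made and no p-value is given.

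**Figure D4:**
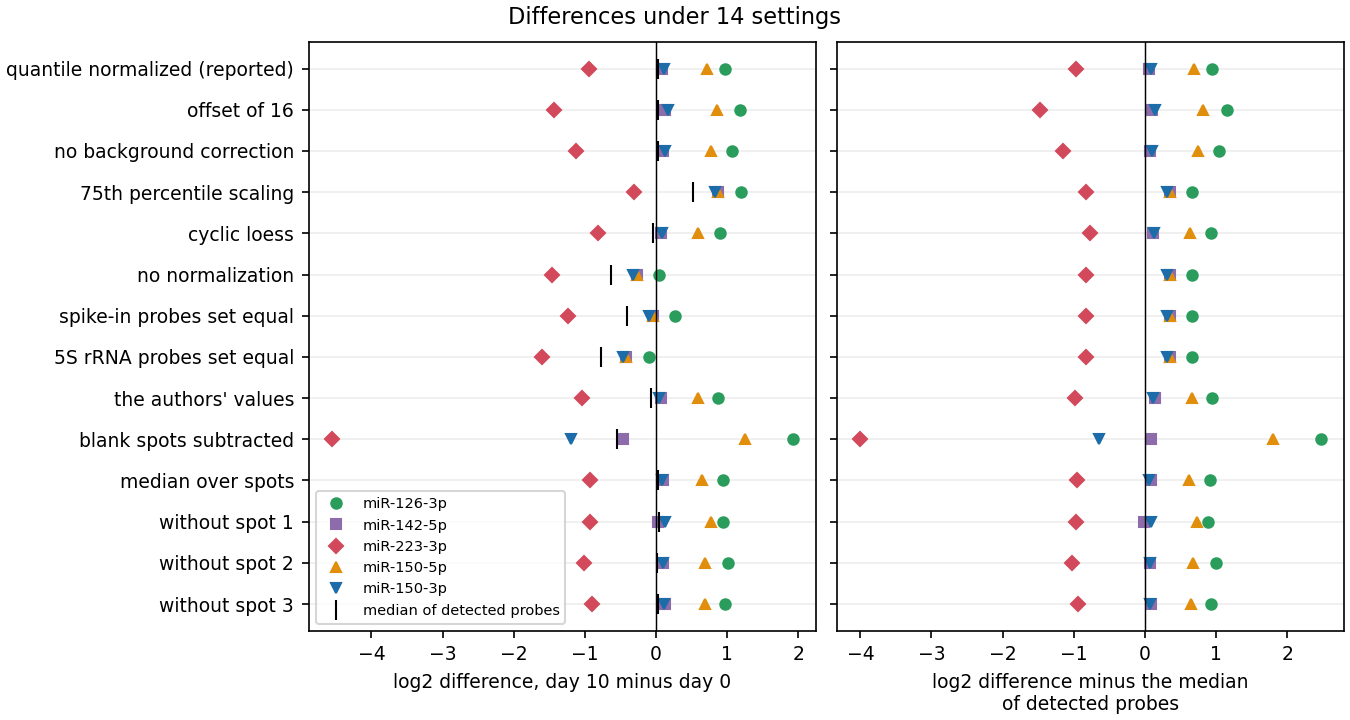
Log2 difference, day 10 minus day 0, of the 5 detected members under 14 settings (left), and the same minus the median of all detected probes (right). Black ticks on the left mark that median. The points shift together with the scaling on the left, and on the right miR-126-3p and miR-150-5p stay above 0 and miR-223-3p below 0.

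By closeness of the normalized difference among the 474 other probes detected on both days, the nearest to miR-126-3p were miR-467c-3p (0.97), miR-128-3p (0.98) and miR-374b-5p (0.96). The nearest to miR-150-5p were miR-346-3p (0.72), miR-5121 (0.71) and miR-148b-3p (0.73). With 1 array per day this likeness is over 2 points.

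Other miRNAs used in blood or endothelial work were read from 2 further lists. Of 10 listed for blood cells, 9 had a probe, all 9 were detected on day 0 and 6 on day 10, against 58.3% and 37.6% of all probes. None was 2-fold higher on day 10 and 3 were 2-fold lower, against 6.77% and 10.4% of detected probes. These were miR-146a-5p, which represses NF-kB signalling through Traf6 and Irak1, at -1.99 (SD 0.022), miR-221-3p at -1.87 (SD 0.073) and miR-222-3p at -1.49 (SD 0.10), the last 2 known to repress the receptor Kit in blood progenitors. Each of the 3 was below 0 under every setting tried. The median of the 9 was -0.53, against 0.024 over all detected probes, but it is the value of miR-146b-5p, which the day 10 array did not detect, so it is no measured size. miR-155-5p, known from activated lymphocytes, had a mean signal of 137 on day 0 and was not detected on day 10, at 56.4.

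All 7 miRNAs listed for endothelium were detected on both days, against 37.5% of all probes. Of these, miR-296-5p was barely above the thresholds of 70.0 and 71.4, with means of 72.9 on day 0 and 71.6 on day 10. On day 10 miR-218-5p was also close to the threshold, with a mean of 74.7. The list had 1 at least 2-fold higher and none lower, against 6.77% and 10.4% of detected probes, and a median of 0.28. The higher one was miR-130a-3p, known to promote angiogenesis, at 1.04 (SD 0.053) or 2.06-fold. Like miR-126-3p it was nearly level in scanner signal, at 648 on day 0 and 611 on day 10, and its difference was -0.074 without normalization and -0.22 with 5S scaling. The list median was then -0.73 and -0.88, and -0.51 with spike-in scaling. These miRNAs are made in many cell types, so they mark endothelium less narrowly than miR-126 does.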

How the data were processed

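Total RNA of 1 day 0 and 1 day 10 sample was hybridised to Cy5 arrays with probes for miRBase release 19, per the labels. Per the file headers, the deposited scanner intensity is the median density of a spot, on a linear scale, and a second table holds the authors' processed intensity per probe. How either was background subtracted or normalized is not stated there. Commas that group the digits of large scanner values were removed. All 3968 spots entered normexp (offset 50, limma 3.58.1, R 4.3.3). Control spots were then left out, and mature probes were quantile normalized on the log2 scale and averaged over 3 spots. The bound of a probe not detected on one array uses the lowest detected level there. The procedure was tested on simulated data. All planted changes there were above 2-fold and in probes brighter than the median probe detected on day 0. Smaller changes, and changes of dimmer probes, were thus not covered. The only comparison was day 10 minus day 0, described by size, since 1 array per day allows no test, and the number of arrays limits the precision. All probes of the named precursors, the 3 nearest differences and the 2-fold members of both lists are named, and any other miRNA was chosen after its values were seen. The members, lists and rules were chosen with earlier results of these data known. Alternatives were another offset, background and scaling, the authors' values plus 50, subsets of spots, and other detection rules and fold sizes. Where the blank signal was subtracted, it was the blank median of each array, and results under 1 were set to 1.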

Additional observations from a re-analysis of the deposited data

How the results depend on the processing

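The median difference of the detected probes, 0.024 as reported, was -0.63 without normalization, -0.40 with spike-in scaling, -0.77 with 5S scaling and 0.52 with 75th percentile scaling, and the members moved with it. The difference of miR-126-3p was 1.18 with an offset of 16, 1.06 without background correction, 1.19 with 75th percentile scaling, 0.041 without normalization, 0.27 with spike-in scaling, -0.10 with 5S scaling, 0.88 in the authors' values plus 50 and 1.92 with the blank signal subtracted, against 0.97 as reported. It stayed within the spot SD in its other 5 settings. As it lies so near 2-fold, the count of members at least 2-fold higher was 1 in place of 0 with an offset of 16, without background correction, with 75th percentile scaling and without spot 2, and 2 with the blank signal subtracted or at 1.5-fold. The count at least 2-fold lower was 1 in place of 0 with an offset of 16, without background correction, without normalization, with spike-in or 5S scaling, in the authors' values, without spot 2 and at 1.5-fold, and 2 with the blank signal subtracted. Members detected on day 0 were 3 in place of 5 with the blank mean plus 3 SD or a doubled threshold, while 2 were detected on day 10 under all 5 other rules. These rules use the same blank spots and none lowers the threshold. The stricter ones could have dropped the 2 detected members. Only the rule of at least 1 spot above the threshold could have added members. It added none, as no day 10 spot of the other 9 passed the threshold. Over all probes, 50 higher and 77 lower became 6 and 232 without normalization, 6 and 178 with spike-in scaling, 4 and 267 with 5S scaling, 154 and 300 with blanks subtracted, 106 and 55 with 75th percentile scaling, 38 and 96 in the authors' values, 34 and 86 with cyclic loess, and 81 and 105 with an offset of 16. With blanks subtracted, the lower counts include probes whose day 10 signal was under the blank median and was set to the floor. Beyond the construction of each scaling, the cause was not tested. No paired analysis was possible because only 1 array was made per day. Low signal over the blanks limits 9 of the 11 members on day 10.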

Other observations

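A total of 85 mature probes had 1 of their 3 spots in column 1 of the array. That spot was the dimmest of the 3 in 46 of them on day 0 (54.1%) and in 52 on day 10 (61.2%). The 4 such members, both arms of miR-142 and of miR-144, had their dimmest spot there on both days. Its part in the detection of miR-142-5p was not tested.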
